A study of Mus musculus with 54 samples.

Results

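Intercalated cells, the acid- and base-transporting cells of the kidney collecting duct and connecting tubule, were followed through 8 genes, chosen by name for their known part in proton pumping and anion exchange, of the 33126 genes listed over the deposited tables. They are the anion exchangers Slc4a1 and Slc26a4, the transcription factor Foxi1, the V1 subunits Atp6v1b1, Atp6v1c2 and Atp6v1g3 and the V0 subunits Atp6v0a4 and Atp6v0d2 of the vacuolar proton pump (V-ATPase). All 8 were listed for all 54 libraries.

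The V-ATPase joins a cytosolic V1 sector, which splits ATP, to a membrane V0 sector, which carries protons. Type A intercalated cells hold the pump in the apical membrane and the exchanger Slc4a1 (AE1) in the basolateral membrane, and so secrete acid. Type B cells hold Slc26a4 (pendrin) in the apical membrane and the pump at the opposite side, and so secrete bicarbonate. The 5 pump genes followed here encode the subunit isoforms with a restricted tissue distribution, whose widely expressed partners are Atp6v1b2, Atp6v1c1, Atp6v1g1, Atp6v0a1 and Atp6v0d1. Foxi1 is a forkhead protein that intercalated cells need in order to form, and it is known to act on promoters of pump and exchanger genes.

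The libraries came from whole kidneys of adult mice in 18 groups of 3, each from 3 mice, over 3 experiments. In the first, kidneys of C57BL/6J males aged 19 weeks were dissociated on ice with a cold-active protease (cold) or at 37 °C with a commercial enzyme kit (warm). The suspensions were profiled fresh, after cryopreservation for 6 weeks or after methanol fixation for 3 months (10x chemistry version 2), and as bulk RNA-seq of the fresh suspension. In the second, Balb/c males aged 18 weeks gave cold-dissociated fresh cells, nuclei of frozen kidneys washed in 3 spins at 500 g and sorted by fluorescence (SN_FANS_3x500g), both with chemistry version 2, and bulk RNA-seq of intact kidney. In the third, Balb/c females aged 15 weeks gave cold-dissociated cells, fresh or cryopreserved for 2 weeks, SN_FANS_3x500g nuclei, nuclei from 1 spin at 2000 g (SN_FANS_1x2000g), nuclei from a sucrose gradient (SN_sucrose), all with chemistry version 3, and bulk RNA-seq of intact kidney and of cold suspension. The labels name no treatment of the mice. The C57BL/6J males were of the AFAPIL.1DEL line, the males of each experiment were littermates and the females were wild type former breeders, per the study's methods. Strain, sex, age, chemistry and storage time cannot be told apart between experiments.

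Depth ranged from 983522 to 27869324 UMIs (unique molecular identifiers, which count molecules) in the 27 cell libraries, from 7629138 to 35170947 UMIs in the 12 nucleus libraries and from 2326998 to 31093949 reads in the 15 bulk libraries. Clustering named 6158 of 175959 barcodes (3.50%) as intercalated-like, between 13 and 350 per library, from markers that hold none of the 8 genes. Among them 2015 were type A-like and 1436 type B-like, and 416 were marked as doublets and kept. Levels are given as CPM, the counts of a gene scaled to a fixed total of UMIs, in the summed intercalated-like barcodes of a library. Per the study's methods genes had to be seen in at least 10 barcodes of a library to be kept. The tables list up to 6658 genes at 0 in a library, whereas those of the cryopreserved female cells list no gene at 0. Foxi1 is listed at 0 in replicate 3 of the cold cryopreserved C57BL/6J cells, and Slc4a1 and Foxi1 are listed at 0 in replicates 1 and 3 of the warm methanol-fixed cells.

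By the median over libraries, most molecules of 6 of the genes lay in the small intercalated-like class. Over the 39 cell and nucleus libraries the median share of a library's UMIs that fell in intercalated-like barcodes was 91.2% for Slc26a4, 90.5% for Atp6v0d2, 89.2% for Atp6v1g3, 87.6% for Foxi1, 84.4% for Slc4a1 and 76.4% for Atp6v1c2. Atp6v1b1 (median 45.1%, range 18.8 to 80%) and Atp6v0a4 (median 15.8%, range 1.89 to 88.9%) had lower medians. All 8 medians pool preparations that differ. The mean share of Atp6v0a4 was 79.1% in cold and 59.1% in warm cryopreserved C57BL/6J cells and 67.8% in cryopreserved cells of the females. That of Slc4a1 was 51.9% in male and 80.2% in female SN_FANS_3x500g nuclei, against 90.8 and 95.6% in fresh Balb/c cells of the same sex. None of the 8 genes was used to cluster barcodes or to name clusters, but the classes come from the same cells, so the levels by class are a description and were not tested.

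In fresh cells of the females, Atp6v1g3, which encodes a stalk subunit of V1, had the most UMIs of the members, which are counts of molecules and not scaled by gene length. It stood at 7206, 8034 and 8211 CPM in intercalated-like barcodes of the 3 libraries, against 25.1 to 42.4 CPM in principal-like cells. Means ran from 368 CPM for Slc4a1 to 755 CPM for Atp6v1c2 in the other 7 genes. All 8 intercalated-like levels were above those of every other class in all 3 libraries. Atp6v1b1, a subunit of the ring that splits ATP, also held 155 ± 24.0 CPM (SD, n = 3) in principal-like, 116 ± 3.75 in connecting tubule-like, 68.7 ± 7.27 in distal convoluted tubule-like and 68.5 ± 12.6 in ascending loop-like cells, against 1.80 ± 0.584 in proximal tubule-like cells. Atp6v0a4, the large membrane subunit, stood at 550.4 ± 62.2 CPM in intercalated-like cells and between 87.8 and 127 CPM (means) in principal, connecting tubule, distal convoluted tubule, ascending loop and proximal tubule-like cells. Proximal tubule-like cells held 94.8 ± 5.95 CPM of Atp6v0a4 while Slc4a1, Slc26a4, Foxi1, Atp6v1b1, Atp6v1c2 and Atp6v0d2 were each between 0.511 and 2.05 CPM there.

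In SN_FANS_3x500g nuclei of the females the mean intercalated-like level was again above that of every other class for each gene, with a wider spread for Atp6v0a4. Atp6v1c2 extended to other tubule classes there, with mean log2(CPM + 1) of 6.57 in connecting tubule-like and 6.15 in ascending loop-like nuclei. It stood at 10.5 in intercalated-like and 1.52 in proximal tubule-like nuclei. In the SN_FANS_3x500g nuclei of the females Atp6v0a4 stood at 1453 ± 124 CPM in intercalated-like, 840.4 ± 90.2 in connecting tubule-like and 774 ± 89.8 in proximal tubule-like nuclei (SD, n = 3). Slc26a4 reached 6026 ± 696 CPM in intercalated-like nuclei and 9.82 ± 2.84 CPM in proximal tubule-like nuclei. Macrophage-like nuclei held 11.9, 515 and 528 CPM of Slc26a4 and 0, 130.5 and 147 CPM of Atp6v1g3 in the 3 libraries, so 1 library stood far below the rest. Atp6v1c2 and Atp6v0d2 had mean log2(CPM + 1) over the 3 libraries of 5.82 and 5.31 in macrophage-like nuclei, against 2.135 for both in macrophage-like fresh cells. The totals behind CPM include mitochondrial genes in these cells and not in the nuclei, so the 2 are not on the same scale. Detection followed the same order. An Atp6v1g3 UMI was held by a median of 96.7% of intercalated-like barcodes over 39 libraries and 3.58% of proximal tubule-like barcodes over 33 libraries. The libraries of cryopreserved C57BL/6J cells held too few proximal tubule-like barcodes, if any, to be counted. Median depths were 397.5 to 6684.5 and 359 to 6218.5 UMIs per barcode. For Foxi1 these shares were 33.0% and 0.140%, and for Atp6v0a4 63.3% and 31.7%.

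**Figure D1:**
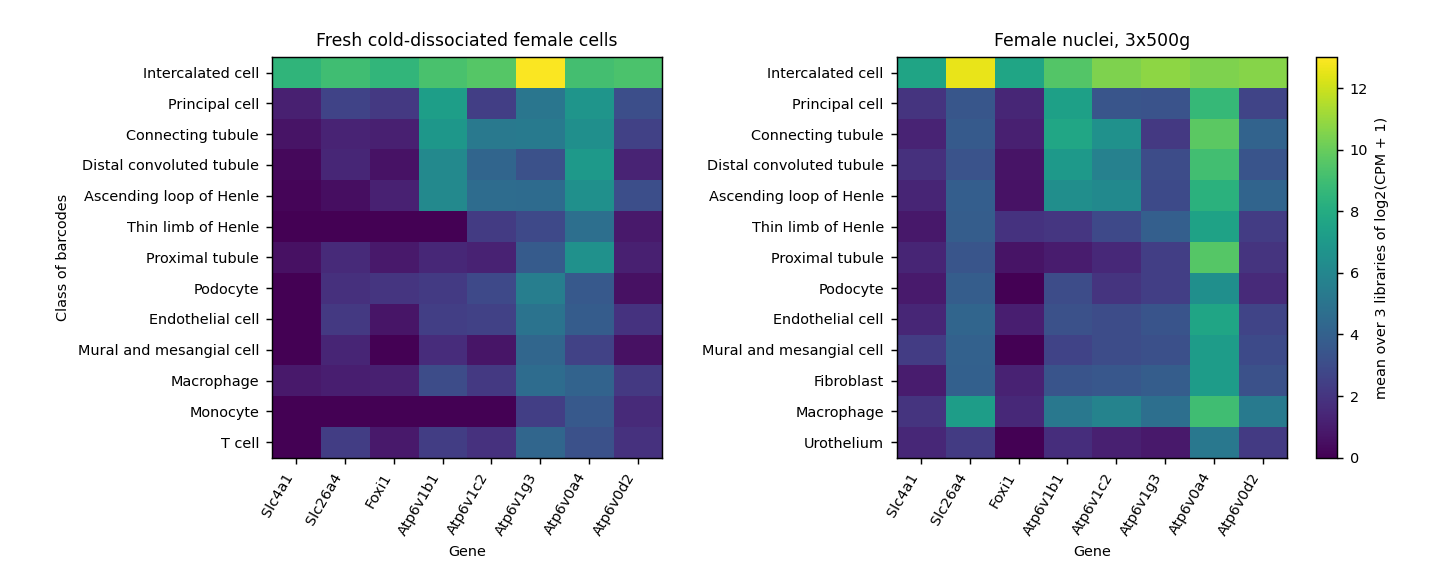
Heat map of the 8 genes (columns) by class of barcodes (rows) in fresh cells and in SN_FANS_3x500g nuclei of Balb/c females, with color for the mean over 3 libraries of log2(CPM + 1). Slc4a1, Slc26a4, Foxi1, Atp6v1c2, Atp6v1g3 and Atp6v0d2 are bright in the intercalated-like class. Atp6v1b1 and, less so, Atp6v1c2 extend to the distal tubule and Atp6v0a4 also to the proximal tubule-like class. The totals behind CPM include mitochondrial genes in the cells and not in the nuclei.

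Each pump isoform outnumbered its widely expressed partner within intercalated-like barcodes. The member took a median over 39 libraries of 96.3% of the UMIs of the pair for Atp6v0a4 and Atp6v0a1, 95.5% for Atp6v1g3 and Atp6v1g1, 93.9% for Atp6v1c2 and Atp6v1c1, 92% for Atp6v0d2 and Atp6v0d1 and 86.6% for Atp6v1b1 and Atp6v1b2. In proximal tubule-like barcodes the median shares, over the 33 libraries with this class, were 8.50% for Atp6v1g3, 2.33% for Atp6v1c2, 1.94% for Atp6v0d2 and 0.741% for Atp6v1b1. Atp6v0a4 again differed, with 88.8% of its pair in the proximal tubule-like class. In the 15 bulk libraries, which mix all classes, the member shares of reads had medians of 80.2% for Atp6v0a4 and between 23.4 and 28.8% for the other 4 pairs, without a correction for length. These medians pool groups that differ, the share of Atp6v1g3 running from 4.72 to 43.2% over the bulk libraries.

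The bulk libraries allow levels to be compared between genes per kilobase of exon. Atp6v0a4 was the highest member in all bulk groups, with 65.5 to 67.1 CPM per kb in the cold C57BL/6J suspensions and 72.5 to 80.5 CPM per kb in the intact kidneys of the females. Atp6v1g3 held 2.78, 4.01 and 4.26 CPM per kb in the cold C57BL/6J suspensions, 13.2, 16.1 and 17.3 in the intact kidneys of Balb/c males and 37.7, 39.1 and 41.5 in those of Balb/c females. Slc26a4 moved less over the same libraries, from 25, 27.3 and 27.5 to 23.6, 28.5 and 30.5 and then 42.8, 42.9 and 44.1 CPM per kb. The first 2 of these groups, both made by ribosomal RNA depletion, differ in strain, age, read length and preparation (suspension or intact kidney). The last 2 differ in sex, age, read length and library kit, poly(A) selection having been used for the females. Within each step these cannot be told apart.

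The 8 genes lie on chromosomes 1, 4, 6, 11 and 12 of GRCm38, Atp6v1b1 (chr6:83742990-83758855, + strand) and Atp6v0a4 (chr6:38048483-38124586, - strand) both on chromosome 6. The others are Slc4a1 (chr11:102348824-102366203, - strand), Foxi1 (chr11:34204338-34208089, - strand), Slc26a4 (chr12:31519827-31559969, - strand), Atp6v1c2 (chr12:17284721-17329359, - strand), Atp6v1g3 (chr1:138273738-138289462, + strand) and Atp6v0d2 (chr4:19876841-19922605, - strand). RefSeq windows (GRCm38.p6) matched 6 of the 8 genes, and the stretch of up to 250 bases upstream of the annotated gene start was kept for 5. They are shown because Foxi1 is a forkhead protein and the members share a cell class with it. Capitals mark the forkhead core AAACA or its reverse complement TGTTT, searched on both strands. The windows are chr1:138273488-138273737 (+) for Atp6v1g3, chr6:83742767-83742989 (+) for Atp6v1b1, chr11:34208090-34208339 (-) for Foxi1, chr12:31559985-31560234 (-) for Slc26a4 and chr6:38124587-38124836 (-) for Atp6v0a4.
Atp6v1g3: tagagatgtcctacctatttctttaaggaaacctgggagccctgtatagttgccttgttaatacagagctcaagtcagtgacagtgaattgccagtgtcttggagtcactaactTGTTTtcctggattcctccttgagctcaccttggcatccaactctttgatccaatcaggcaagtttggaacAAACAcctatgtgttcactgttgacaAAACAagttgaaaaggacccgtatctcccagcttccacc
Atp6v1b1: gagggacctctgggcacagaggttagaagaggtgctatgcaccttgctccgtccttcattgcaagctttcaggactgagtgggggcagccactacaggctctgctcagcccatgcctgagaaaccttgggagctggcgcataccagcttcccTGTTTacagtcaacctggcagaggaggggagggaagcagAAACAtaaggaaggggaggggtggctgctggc
Foxi1: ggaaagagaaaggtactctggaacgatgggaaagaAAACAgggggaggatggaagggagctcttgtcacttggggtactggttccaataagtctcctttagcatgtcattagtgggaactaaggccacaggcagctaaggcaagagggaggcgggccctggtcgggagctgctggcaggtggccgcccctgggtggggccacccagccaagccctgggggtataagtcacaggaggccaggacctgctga
Slc26a4: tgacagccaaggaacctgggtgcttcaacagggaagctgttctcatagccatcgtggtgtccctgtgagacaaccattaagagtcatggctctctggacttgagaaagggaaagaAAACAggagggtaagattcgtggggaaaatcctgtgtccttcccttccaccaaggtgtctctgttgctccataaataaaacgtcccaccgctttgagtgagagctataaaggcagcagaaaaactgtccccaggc
Atp6v0a4: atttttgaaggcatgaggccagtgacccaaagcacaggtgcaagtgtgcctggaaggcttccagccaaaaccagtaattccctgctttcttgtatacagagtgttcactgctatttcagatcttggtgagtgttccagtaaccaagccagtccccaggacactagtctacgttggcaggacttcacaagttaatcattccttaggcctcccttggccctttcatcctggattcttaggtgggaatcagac
The core occurred 3 times in the Atp6v1g3 window, 2 times in that of Atp6v1b1, once each in those of Foxi1 and Slc26a4 and not in that of Atp6v0a4. It is a short word, and 46.4% of the 32851 mouse promoter windows of 250 bases hold it. The longer GTAAACA, which contains the core, was found in the Atp6v1b1 window as its reverse complement TGTTTAC. With both strands searched it was found in 3.17% of all windows. The Slc26a4 window also held TAAATA, the reverse complement of TATTTA, a word found on either strand in 12.7% of windows. These matches describe letters and not bound sites.

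The named sub-clusters divided the exchangers cleanly and the pump genes hardly. Many intercalated-like barcodes lay in unnamed sub-clusters, 319 of 534 in fresh cells of the females and 392 of 757 in nuclei of the males. There were fewer in SN_FANS_3x500g nuclei of the females, with 192 of 840. Unnamed barcodes also held exchanger UMIs, with 580 of Slc26a4 in replicate 1 of the male nuclei against 390 in type B-like ones. Type A-like barcodes (named from Kit, Aqp6, Dmrt2 and similar markers) and type B-like barcodes (Slc4a9, Insrr, Hmx2 and similar) were both named in the Balb/c libraries, whereas in C57BL/6J cells only type A-like sub-clusters passed the naming rule. In fresh cells of the females Slc4a1 stood at 821, 891 and 1073 CPM in type A-like cells and at 0, 0 and 13.8 CPM in type B-like cells. Slc26a4 stood at 0, 0 and 11 CPM in type A-like cells and at 946, 1219 and 1391 CPM in type B-like cells. The groups were far apart in every one of the 7 Balb/c groups of libraries. In SN_FANS_1x2000g nuclei the means were 461 against 2.08 CPM for Slc4a1 and 5.45 against 9461 CPM for Slc26a4, again type A-like first. The exchangers took no part in the clustering or naming. The sub-clusters come from the same cells, however, so these levels are descriptions with no test.

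Among the pump genes, Atp6v1c2 leaned to type B-like barcodes. Its mean level there was 1.27 to 1.63 times that of type A-like barcodes over the 7 groups, and it was higher in all 3 libraries of each. In fresh cells of the females it stood at 509, 610.1 and 721 CPM in type A-like and at 756, 926 and 1012 CPM in type B-like cells, without overlap. Atp6v1g3 leaned the same way in cells, with ratios of 1.35 to 1.55, and less in nuclei, with ratios of 0.982 to 1.16. Atp6v0d2, a membrane-sector stalk subunit, had ratios of 0.946 to 1.26, and Atp6v0a4 of 0.698 to 0.986. Atp6v1b1 had ratios of 0.736 to 1.06, with only SN_sucrose nuclei above 1, and Foxi1 of 0.736 to 1.19.

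**Figure D2:**
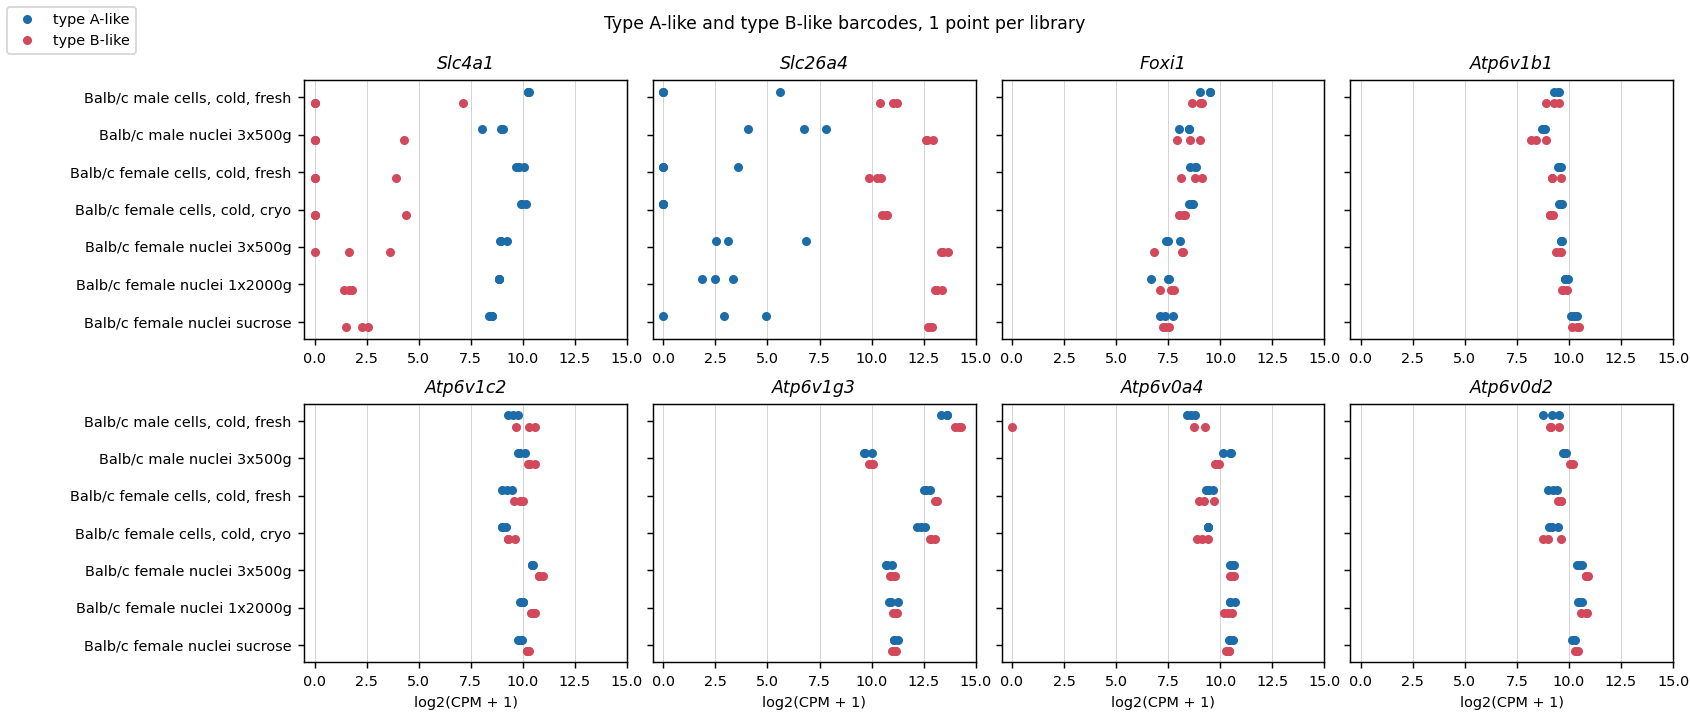
Levels of the 8 genes, as log2(CPM + 1), in type A-like (blue) and type B-like (red) barcodes of the 7 Balb/c groups, with a point per library. Slc4a1 and Slc26a4 separate the types by far more than the libraries spread, and Atp6v1c2 is higher in type B-like than in type A-like barcodes of each library.

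Single barcodes told the same of the exchangers. Of 6158 intercalated-like barcodes, 1740 held UMIs of Slc4a1 alone, 2558 of Slc26a4 alone, 72 of both and 1788 of neither. The share with both was at most 6.59% in any library, that maximum being a library of warm cryopreserved cells. In fresh cells of the females 118 barcodes held Slc4a1 alone, 142 Slc26a4 alone and 5 both, and in their SN_FANS_3x500g nuclei these were 241, 453 and 14. At this depth a missing UMI does not mean a missing transcript.

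The question of the first comparison was how dissociation at 37 °C differs from dissociation on ice. In bulk RNA-seq of C57BL/6J suspensions 6 of the 8 genes were higher after warm dissociation and none was lower. Foxi1 stood at 9.21, 12.6 and 15.2 CPM in the cold and at 21.4, 26.2 and 29.3 CPM in the warm suspensions, which do not overlap. Its log2 fold change was 1.02 ± 0.161 (SE, adjusted p = 0.0021, edgeR quasi-likelihood test). Atp6v1b1 moved from 63.7, 87.6 and 92 to 147, 151 and 172 CPM (log2 fold change 0.92 ± 0.11, adjusted p = 0.00030), and Slc26a4 from 77.7, 84.9 and 85.5 to 117, 154 and 160 CPM (0.77 ± 0.102, adjusted p = 0.00061).

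Atp6v1g3 (log2 fold change 1.02 ± 0.207, adjusted p = 0.0090), Atp6v0d2 (0.92 ± 0.127, adjusted p = 0.00079) and Atp6v1c2 (0.69 ± 0.104, adjusted p = 0.0014) were the other three called. The 2 members that did not pass were Slc4a1, at 64.1, 79.6 and 85.9 CPM cold and 89.3, 103 and 105 CPM warm (0.35 ± 0.113, adjusted p = 0.080, or 0.045 with total counts as the scale), and Atp6v0a4, at 326, 333 and 334 CPM cold and 346, 374 and 377 CPM warm (0.12 ± 0.066, adjusted p = 0.33). Of 14102 genes tested 8.68% were called, 5.42% as higher and 3.26% as lower. With a further threshold of 2 on the log2 fold change, which the study used, none of the 8 and 0.511% of all genes were called. Slc4a1 is also a red cell gene, and the summed hemoglobin and other red cell markers stood at 3174 to 4419 CPM in the cold and at 1433 to 2845 CPM in the warm suspensions. In bulk samples fewer cells of a type and less RNA per cell cannot be told apart.

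Of the other transport genes of intercalated cells, 13 of the 15 listed were tested, 8 being higher, 5 not called and none lower, among them the ammonia transporters Rhbg (1.28) and Rhcg (1.11), the water channel Aqp6 (1.01) and the type B exchanger Slc4a9 (0.91, all log2 fold changes), with adjusted p between 2.5e-05 and 0.012 for the 8. Of the 17 other V-ATPase genes, most of them expressed in many tissues, none was higher and Atp6v0e2 was lower (log2 fold change -0.46 ± 0.0911, adjusted p = 0.0082).

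Within intercalated-like cells of the same suspensions none of the 8 genes was called, where 0.996% of 2509 genes were, 0.717% as higher and 0.279% as lower (edgeR, adjusted p under 0.05), and 224 genes had an unadjusted p under that value. DESeq2 also called none of the 8, among 14 genes in all. Foxi1 stood at 165, 224 and 315 CPM in cold and 220, 246 and 274 CPM in warm cells (log2 fold change -0.01 ± 0.24), and Atp6v1b1 at 333, 517 and 531 against 443, 482 and 597 CPM (0.02 ± 0.2). Both overlapped. Slc4a1 had the lowest unadjusted p, with 416, 479 and 579 CPM in cold and 107, 224 and 379 CPM in warm cells, which do not overlap (-0.96 ± 0.27, adjusted p = 0.11). Atp6v1c2 did not overlap either, with 540, 561 and 608 CPM in cold and 628, 718 and 1157 CPM in warm cells (0.39 ± 0.19, adjusted p = 0.55). Over all barcodes of the fresh libraries the 8 genes summed to 455, 468 and 534 CPM cold and 253, 279 and 323 CPM warm. In the bulk suspensions they summed to 626, 644 and 650 CPM cold and 862, 863 and 961 CPM warm, the other direction. Every gene but Atp6v0a4 (means of 59.0 CPM cold and 66.8 CPM warm) had a lower mean over all barcodes of the warm libraries. This difference between assays was not tested. Intercalated-like cells made up 1.74 to 2.98% of barcodes in cold and 1.62 to 2.54% in warm libraries. Their makeup differed, since a shallow cluster (24, median 717 to 830 UMIs) held 47.9% of them in cold and 73.7% in warm libraries and a deep one (28) held the rest. Neither of the 2 other lists had a call. Aqp6, Car2, Car12, Rhbg, Rhcg and Slc4a9 of the transport list were also markers by which the class was named here and in later comparisons. They were not kept out of the clustering, so their levels in intercalated-like barcodes are not independent of how these were chosen.

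**Figure D3:**
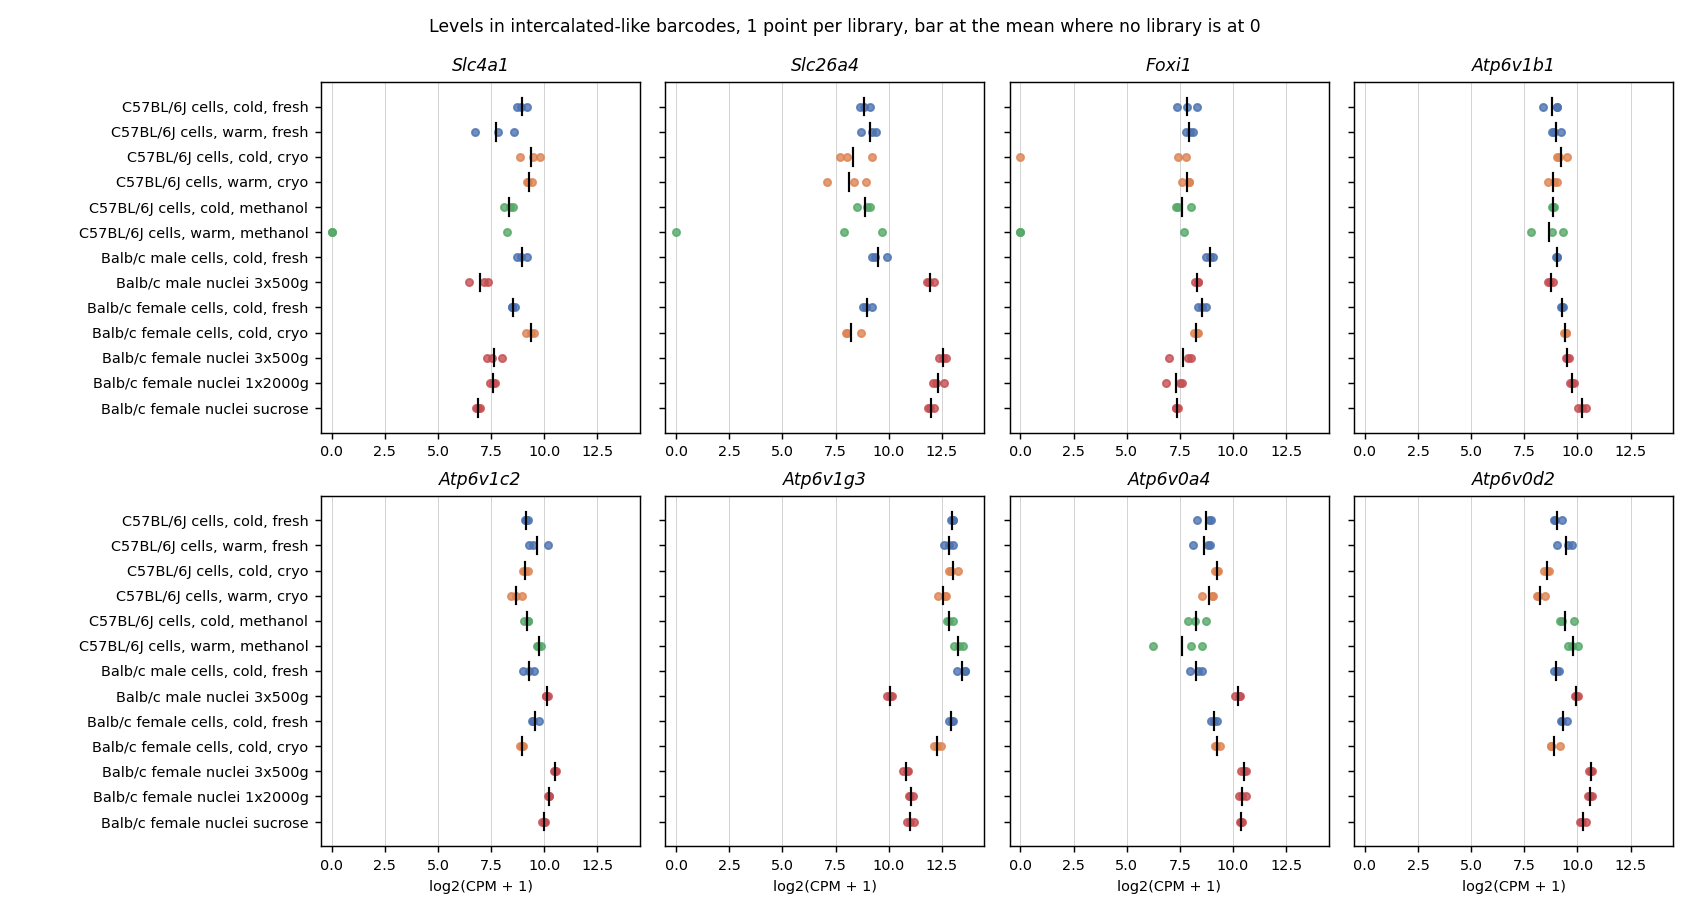
Level of each gene, as log2(CPM + 1), in the intercalated-like barcodes of every library, by the 13 groups of cells and nuclei, with a point per library and a bar for the mean where no library is listed at 0. Slc26a4 is highest and Atp6v1g3 lowest in the nuclei, while warm and cold fresh cells overlap for all genes but Slc4a1 and Atp6v1c2.

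The effect of storage was asked by comparing preserved with freshly profiled suspensions. Names in the C57BL/6J tables were taken to tie each preserved aliquot to a fresh one, and no such tie was found for the females. The study describes the female libraries as aliquots of suspensions too, so fresh and cryopreserved ones may share mice. In the main tests all these libraries, C57BL/6J and female, were treated as independent samples. The tie between C57BL/6J aliquots entered only as a block in an alternative fit. Slc4a1 was higher after cryopreservation in 2 of the 3 comparisons. In the females it went from 351, 361 and 392 to 567, 666 and 742 CPM (log2 fold change 0.93 ± 0.134, adjusted p = 5.3e-05), and in warm C57BL/6J cells from 107, 224 and 379 to 576, 603 and 678 CPM (1.29 ± 0.29, adjusted p = 0.0093). In cold C57BL/6J cells the 465, 696 and 886 CPM after storage overlapped the 416, 479 and 579 CPM of fresh cells (0.36 ± 0.2, adjusted p = 0.31). The warm and cold effects did not differ by their own test (0.94, adjusted p = 0.39), and both compare with fresh libraries of their own protocol.

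In the females 3 further genes were called, all lower after cryopreservation. Slc26a4 fell from 443, 493 and 598 to 255, 260 and 419 CPM (log2 fold change -0.62 ± 0.156, adjusted p = 0.016). Atp6v1g3 fell from 7206, 8034 and 8211 to 4545, 4894 and 5560 CPM (-0.55 ± 0.119, adjusted p = 0.0051), and Atp6v1c2 from 686, 712 and 866 to 460, 490 and 509 CPM (-0.53 ± 0.123, adjusted p = 0.0087). That makes 4 of 8 called, where 6.37% of 6369 genes were, 3.00% as higher and 3.38% as lower. The makeup of the class moved with these levels. Type A-like barcodes were 105 of 534 intercalated-like barcodes in fresh and 184 of 411 in cryopreserved cells, and type B-like barcodes were 110 and 58. Within type A-like barcodes alone none of the 7 genes tested was called (Slc4a1 0.26 ± 0.146, adjusted p = 0.68), and none of 7 within type B-like barcodes (Slc26a4 0.66 ± 0.169, adjusted p = 0.085). There 0.304% and 0.834% of all genes were called.

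The cluster that held most type A-like cells (17) took 24.7% of the intercalated-like barcodes of fresh and 80.3% of those of cryopreserved female cells, and a shallow cluster (26) took 53.0% and 2.68%. Intercalated-like barcodes rose from 2.02 to 4.02% of fresh to 7.52 to 11.9% of cryopreserved libraries. The red cell markers summed to 916 to 2053 CPM in fresh libraries. None of them is listed in the tables of the 3 cryopreserved libraries, so their level there is not known. In the warm C57BL/6J cells these markers summed to 1789 to 3556 CPM in fresh and 12.6 to 31.2 CPM in cryopreserved libraries, the latter being those with more Slc4a1. The part of red cells in either Slc4a1 difference was not tested. In warm C57BL/6J cells Atp6v0d2 fell from 526, 750 and 846 to 271, 285 and 350 CPM (log2 fold change -1.07 ± 0.2, adjusted p = 0.0022) and Atp6v1c2 from 628, 718 and 1157 to 345, 406 and 488 CPM (-0.86 ± 0.21, adjusted p = 0.015). With Slc4a1 this made 3 of 8, where 9.82% of genes were called, 5.67% as higher and 4.15% as lower, and cluster 28 held 26.3% of these barcodes in fresh and 62.5% in cryopreserved libraries. In cold C57BL/6J cells 1 of 8 was called, where 6.66% of genes were, 2.96% as higher and 3.71% as lower. This was Atp6v0d2, from 482, 497 and 612 to 348, 380 and 407 CPM (-0.60 ± 0.15, adjusted p = 0.029), and cluster 28 held 52.1% and 87.5% there. DESeq2, and total counts as the scale, called none of the 8 in cold cells.

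Of the other pump genes Atp6ap2, an accessory subunit, was lower after cryopreservation in cold C57BL/6J cells (log2 fold change -0.80, adjusted p = 0.0058) and in the females (-0.53, adjusted p = 0.011). It was the only one of 15 tested to be called in the females, and Atp6v1a and Atp6v1b2 were also lower in cold C57BL/6J cells (3 of 11). Of the other transport genes the type A gene Aqp6 was higher in warm C57BL/6J cells (1.64, adjusted p = 0.038) and in the females (1.19, adjusted p = 5.4e-05). Aqp6, Car2 and Rhbg are also markers by which the class was named, so these values are not independent of how its barcodes were chosen. The carbonic anhydrase Car2 was lower in warm C57BL/6J cells (-0.95, adjusted p = 0.00063), which made 1 higher and 1 lower of 10 tested there, and none of 9 was called in cold cells. In the females Rhbg (0.61) was also higher and Car15 (-1.75) lower, and 4 of 10 tested were called in all.

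After methanol fixation 3 of the 8 genes were lower in cold C57BL/6J cells, where 15.0% of 2103 genes were called, 6.51% as higher and 8.46% as lower. Slc4a1 moved from 416, 479 and 579 to 273, 332 and 363 CPM (log2 fold change -0.91 ± 0.19, adjusted p = 0.0045), without overlap. Atp6v0a4 had 316, 468 and 505 CPM in fresh and 236, 291 and 418 CPM in fixed cells (-0.84 ± 0.2, adjusted p = 0.0091), and Atp6v1g3 7841, 8260 and 8327 against 6828, 7265 and 8257 CPM (-0.49 ± 0.16, adjusted p = 0.044). The other 2 overlapped in CPM. TMM normalization sets the typical gene to no change, and with total counts as the scale the median of all genes was 0.36 on the log2 scale. On that scale Slc4a1 was called (-0.55, adjusted p = 0.037) and the other 2 were not.

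Cold methanol-fixed libraries held 12211 to 26929 CPM of red cell markers over all barcodes, against 4216 to 12043 CPM in the fresh cold libraries, and the shallow cluster 24 took 68.1% of the intercalated-like barcodes after 47.9%. The part of either in the changes was not tested. Of other genes, Atp6v1a (-0.84), Atp6ap1 (-0.84) and Atp6ap2 (-0.64) of 13 pump genes were lower and none was higher. Of 9 transport genes 3 were lower, among them Car12 (-1.26) and Rhbg (-0.56), and none was higher. Atp6v1a encodes the ring subunit that splits ATP, and Car12 a carbonic anhydrase.

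In warm C57BL/6J cells none of the 8 was called after methanol fixation, where 6.06% of 1073 genes were, 1.77% as higher and 4.29% as lower, 238 genes having an unadjusted p under 0.05. With the source suspension, as read from those names, as a block 2 were called, Slc26a4 (log2 fold change -1.21, adjusted p = 0.045) and Atp6v0a4 (-1.20, adjusted p = 0.022), both lower. DESeq2 called none of the 8 genes. Atp6v0a4 stood at 279, 448 and 485 CPM fresh and at 75.3, 259 and 368 CPM fixed. Slc26a4 stood at 418, 585 and 676 CPM fresh and at 0, 236 and 814 CPM fixed, the 0 coming from 13 intercalated-like barcodes. Slc4a1 was listed at 0 in 2 of the 3 fixed libraries and stood at 304 CPM in the third. Atp6v1a (-1.25, adjusted p = 0.0087) and Atp6ap1 (-1.55, adjusted p = 0.016) were lower among 11 other pump genes.

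The ratio of the exchangers over all barcodes of a library differed between preparations. Slc26a4 had 1.34 to 1.86 times the UMIs of Slc4a1 in fresh and 0.363 to 0.753 times in cryopreserved cells of the females, without overlap. Bulk RNA-seq of the females gave read ratios of 1.30 to 1.50 in intact kidney and 1.25 to 1.67 in the cold suspension. In C57BL/6J cells the ratio was 0.796 to 1.13 in cold fresh and 1.76 to 4.17 in warm fresh libraries, and 0.286 to 1.35 and 0.195 to 0.862 after cryopreservation. Bulk RNA-seq of the fresh C57BL/6J suspensions gave overlapping read ratios of 0.904 to 1.33 cold and 1.14 to 1.79 warm, and the cold methanol-fixed libraries gave UMI ratios of 1.01 to 2.84. The 3 protocols for nuclei gave ratios between 16.6 and 33.3 in the females.

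**Figure D4:**
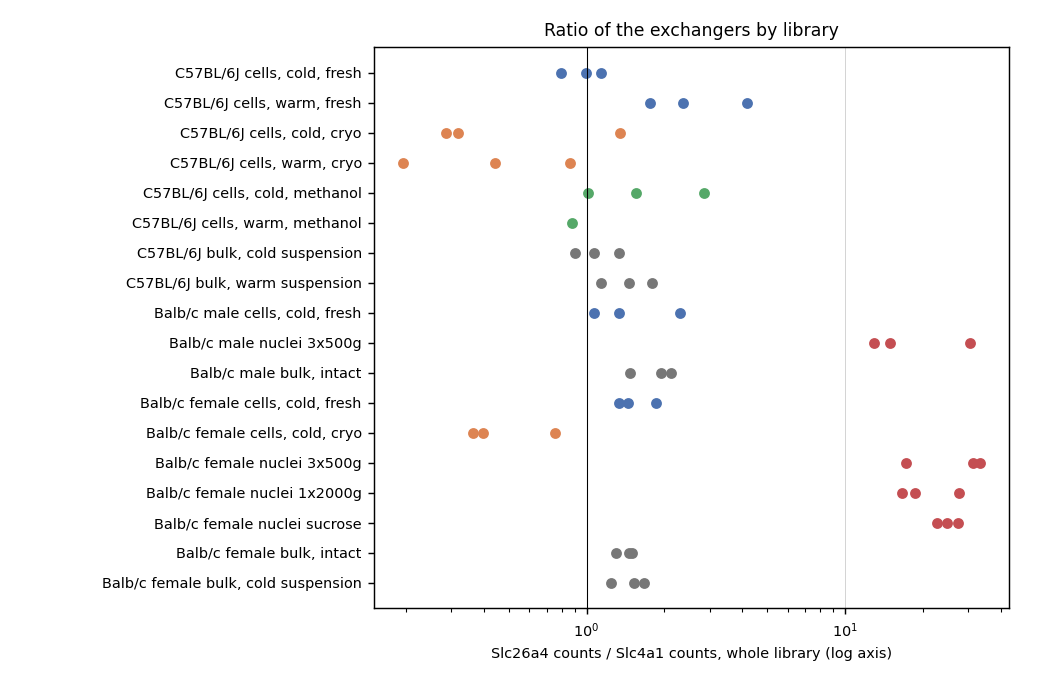
UMIs or reads of Slc26a4 over those of Slc4a1 per library (log axis) in the 18 groups, with a point per library, leaving out 2 warm methanol-fixed libraries in which Slc4a1 is listed at 0. Nuclei lie at 12.9 or above, and 8 of the 9 libraries of cryopreserved cells lie below 1.

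Nuclei were compared with cells to ask what single-nucleus libraries hold. The makeup of the intercalated-like class differed. In the males type B-like barcodes were 83 of 580 in cells and 168 of 757 in nuclei, and type A-like ones 157 and 197. In the females type B-like barcodes were 110 of 534 in cells and 303 of 840 in nuclei, and type A-like ones 105 and 345. The members split over all intercalated-like barcodes, Slc26a4 and Atp6v0a4 being higher and Slc4a1, Foxi1 and Atp6v1g3 lower in nuclei in both sexes. In the males 7 of 8 were called, where 73.9% of 5708 genes were, 40.7% as higher and 33.1% as lower. Slc26a4 stood at 602, 658 and 965 CPM in cells and at 3535, 3828 and 4480 CPM in nuclei (log2 fold change 2.35 ± 0.222, adjusted p = 5.4e-12), and Atp6v0a4 at 248, 321 and 365 against 1096, 1228 and 1298 CPM (1.85 ± 0.21, adjusted p = 5.9e-10). Atp6v1g3 stood at 9379, 12203 and 12243 CPM in cells and at 984, 1082 and 1156 CPM in nuclei (-3.47 ± 0.241, adjusted p = 1.0e-15), and Slc4a1 at 418, 485 and 574 against 86.5, 141 and 160.0 CPM (-2.00 ± 0.223, adjusted p = 3.1e-10). None of these overlapped. Atp6v0d2 (0.85 ± 0.195) and Atp6v1c2 (0.77 ± 0.199) were also higher and Foxi1 (-0.68 ± 0.194) lower, and Atp6v1b1 (-0.35 ± 0.191, adjusted p = 0.095) was not called. Within the types of the males the CPM of both genes was also lower in nuclei. Foxi1 went from 654 ± 116 to 324 ± 56.6 CPM in type A-like and from 492 ± 77.6 to 378 ± 139 CPM in type B-like barcodes, and Atp6v1b1 from 683 ± 56.1 to 442 ± 27.3 and from 607 ± 126 to 365 ± 94.6 CPM (SD, n = 3). The fits of single types, in which the median gene stood at 0.48 and 0.97 on the log2 scale, gave positive values for both (0.17 and 1.06 for Foxi1, 0.47 and 0.87 for Atp6v1b1, type A-like and then type B-like), so no direction is read from them.

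In the females 7 of 8 were called as well, where 76.7% of 9062 genes were, 39.6% as higher and 37.1% as lower. Cell tables of the females hold mitochondrial genes and nucleus tables do not, so CPM is given here over the 13890 genes shared by both. Slc26a4 had 675, 733 and 858 CPM in cells and 5433, 6120 and 6839 CPM in nuclei (log2 fold change 2.62 ± 0.127, adjusted p = 2.0e-14). Atp6v1g3 had 10719, 11785 and 12244 against 1673, 1892 and 1940 CPM (-3.08 ± 0.112, adjusted p = 1.1e-16), Slc4a1 503, 550 and 583 against 161, 186 and 262 CPM (-1.85 ± 0.153, adjusted p = 2.8e-10) and Foxi1 499, 555 and 597 against 130, 236 and 262 CPM (-1.81 ± 0.178, adjusted p = 5.3e-09). Each pair was apart in all libraries. Atp6v1b1 was lower (-0.70 ± 0.11, adjusted p = 6.2e-06) and Atp6v0a4 (0.45 ± 0.116, adjusted p = 0.0014) and Atp6v0d2 (0.32 ± 0.117, adjusted p = 0.017) were higher. Atp6v1c2 was not called (-0.01 ± 0.112), with 1117 ± 115 CPM in cells and 1478 ± 62.8 CPM in nuclei (SD, n = 3), and total-count scaling, under which the median gene rose by 0.55, gave 0.42 (adjusted p = 0.0012). Within type A-like barcodes alone Atp6v1c2 was called as higher (0.61 ± 0.153, adjusted p = 0.00039), as it was within type B-like barcodes (0.57 ± 0.158, adjusted p = 0.0012), where the medians of all genes were 0.51 and 0.61.

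Within type A-like barcodes of the females Slc4a1 was lower in nuclei (log2 fold change -1.41 ± 0.157, adjusted p = 7.1e-11), and within type B-like barcodes Slc26a4 was higher (2.82 ± 0.171, adjusted p = 3.9e-19). In type A-like barcodes of the males Slc4a1 stood at 1193, 1202 and 1270 CPM in cells and at 259, 496 and 519 CPM in nuclei, without overlap. The fit, with a median of 0.48 over 1120 genes, did not call it (-0.41 ± 0.262, adjusted p = 0.13).

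The direction was set beside the length of the gene. From the start to the end of the gene in GRCm38, Foxi1 spans 3.75 kb, Atp6v1g3 15.7, Atp6v1b1 15.9, Slc4a1 17.4, Slc26a4 40.1, Atp6v1c2 44.6, Atp6v0d2 45.8 and Atp6v0a4 76.1 kb. Over all intercalated-like barcodes the 4 shorter genes had negative values in both sexes, and the 4 longer genes had positive values in the males. In the females 3 of the longer genes did, and Atp6v1c2, at -0.01, was near 0 and lay between 0.010 and 0.081 with any 1 library left out. Across all genes with a span the log2 fold change and the span had a Spearman correlation of 0.64 in the males (5545 genes) and 0.74 in the females (8811 genes), and of 0.74 over the 8 members in each sex. Genes are not independent replicates, and they share libraries here. Genes up to 10 kb had a median of -1.80 in the males and -2.46 in the females, and genes over 60 kb of 1.65 and 1.87. In the nuclei the authors counted intronic and exonic reads and in the cells exonic reads alone. Slc26a4, at 2.35 and 2.62, lay far above the medians of 0.37 and 0.55 of genes of 30 to 60 kb, and Atp6v1g3, at -3.47 and -3.08, far below the -0.61 and -0.62 of genes of 10 to 30 kb.

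**Figure D5:**
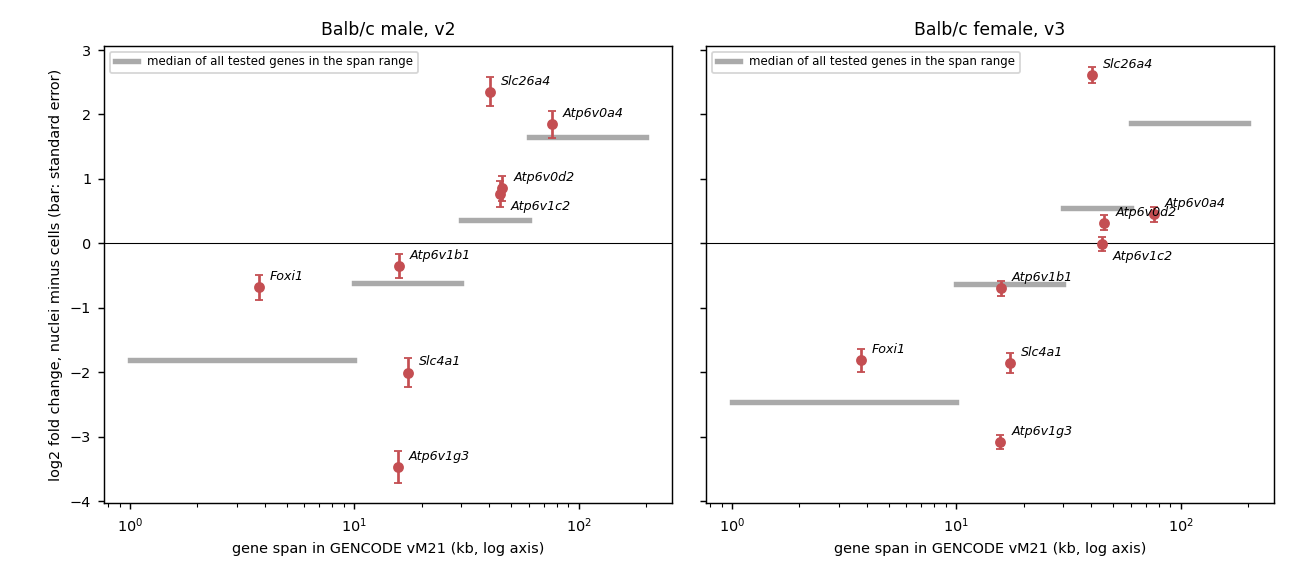
Log2 fold change of nuclei over cells (y axis) against gene span (kb, log axis) for the 8 genes in males and females, with grey bars for the median of all tested genes in 4 ranges of span. Members of under 20 kb lie below 0 and Slc26a4 stands above and Atp6v1g3 below the bar of its range.

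Of the 17 other pump genes listed, 2 of 14 tested were higher and 9 lower in the nuclei of the males, where 40.7% and 33.1% of all genes were, and 1 of 15 was higher and 11 lower in those of the females, where 39.6% and 37.1% were. The stalk subunits Atp6v1f (log2 fold change -5.79, adjusted p = 2.4e-19) and Atp6v1g1 (-5.27, adjusted p = 8.6e-17) and the membrane subunit Atp6v0e (-3.78, adjusted p = 1.9e-17) had the 3 lowest adjusted p of the list in the females, and Atp6v0a1 was higher (1.92, adjusted p = 4.9e-07). Of the other transport genes 2 of 10 were higher and 3 lower in the males, and 4 of 11 higher and 7 lower in the females. Slc4a9 was higher (2.20 and 3.37), as was Car12 (1.33 and 1.32), and the carbonic anhydrase Car2 (-1.82 and -2.66) and Rhbg (-0.68 and -2.18) were lower, each value for males and then females.

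The 3 protocols for nuclei were compared in the females. Against SN_FANS_3x500g, 5 of 8 genes were called in SN_sucrose nuclei, where 18.6% of 9730 genes were, 10.8% as higher and 7.75% as lower. Atp6v1b1 rose from 702, 726 and 771 to 1045, 1185 and 1338 CPM (log2 fold change 0.83 ± 0.104, adjusted p = 0.00019), without overlap. Slc4a1 fell from 158, 183 and 257 to 111, 117 and 124 CPM (-0.64 ± 0.158, adjusted p = 0.012), Slc26a4 from 5334, 6019 and 6725 to 3748, 3978 and 4448 CPM (-0.44 ± 0.102, adjusted p = 0.0086) and Atp6v1c2 from 1400, 1439 and 1518 to 957, 1028 and 1053 CPM (-0.39 ± 0.0873, adjusted p = 0.0074), also without overlap. Atp6v1g3, at 1645, 1860 and 1904 against 1871, 2068 and 2323 CPM, was higher (0.34 ± 0.101, adjusted p = 0.030) and overlapped. With total counts as the scale Atp6v1g3 was not called and Atp6v0d2 was (-0.36), and over all genes the share of calls that were higher went from 58.3 to 34.7%.

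In SN_FANS_1x2000g nuclei 1 of 8 was called against SN_FANS_3x500g, where 10.2% of 9815 genes were, 7.25% as higher and 2.99% as lower. Atp6v1b1 stood at 806, 869 and 915 CPM, above the 702, 726 and 771 CPM of the other protocol (log2 fold change 0.31 ± 0.09, adjusted p = 0.043), and the call was lost with DESeq2 and without any 1 of the 6 libraries. Slc4a1, at 172, 194 and 204 CPM, and Atp6v0a4, at 1242, 1375 and 1550 CPM, overlapped their values in SN_FANS_3x500g. The 2 comparisons share these libraries. Of 15 other pump genes tested, 9 were higher in SN_sucrose nuclei, where 10.8% of all genes were, and 6 in SN_FANS_1x2000g nuclei, where 7.25% were, and none was lower in either, all with TMM as the scale. The accessory subunit Atp6ap1 (0.92 and 0.49) and Atp6v1f (1.14 and 0.95) were among them in both. Of the other transport genes Slc4a9 (-0.36 and -0.42) was lower in both, and Car2 was higher in SN_sucrose nuclei (0.78, adjusted p = 0.00044).

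Finally, intact kidney was compared with cold suspension in bulk RNA-seq of the females. All 8 genes had lower values in intact kidney and 1 was called, where 20% of 16538 genes were, 12.1% as higher and 7.91% as lower. With the threshold of 2 on the log2 fold change none of the 8 and 1.68% of all genes were called. Atp6v1b1 had 139.5, 139.7 and 144 CPM in intact kidney and 167, 209 and 266 CPM in suspension (log2 fold change -0.59 ± 0.135, adjusted p = 0.014). Atp6v0d2 stood at 45.6, 49.2 and 49.5 against 47.9, 65.2 and 84.7 CPM (-0.44 ± 0.16, adjusted p = 0.090), which overlapped. The result rested on single libraries, since 7 genes were called without replicate 3 of the cold suspension and none without replicate 2 of the intact kidneys. The members summed to 968 to 975 CPM in intact kidney and to 966, 1217 and 1409.5 CPM in the suspensions. Of the other transport genes 7 of 15 were lower in intact kidney, among them Slc4a9 (-0.72) and Rhbg (-0.70), and none was higher. Of the other pump genes 7 of 17 were lower, with values between -0.29 and -0.16, and Atp6v0a2 was higher (0.25, adjusted p = 0.0040).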

How the data were processed

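RNA of whole mouse kidneys was measured in 27 single-cell, 12 single-nucleus and 15 bulk libraries. Per the labels and the study's methods, the authors aligned droplet reads to mm10 with Cell Ranger 2.1.1, counting exonic reads in cells and intronic and exonic reads in nuclei, called barcodes with EmptyDrops, required genes to be seen in at least 10 barcodes of a library and filtered barcodes on genes, UMIs and mitochondrial share. Bulk reads were aligned with STAR 2.6.1a and counted per gene with featureCounts, the strandedness not being given in the sources used here. The deposited values are raw counts of UMIs or reads per gene. Depth is given in the report and covers counting precision only.

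From these counts, barcodes were clustered separately in 5 sets, by experiment and by cells or nuclei, on 2000 variable genes that left out the 8 members and stress response, sex-linked, ribosomal, mitochondrial and hemoglobin genes, 30 principal components and 20 neighbours, by Leiden clustering at resolution 2 (leidenalg 0.10.2, Python 3.11.15, scikit-learn 1.9.0). A cluster was named where at least 3 fixed markers passed, the red cell list being left out of the naming after the data were seen, and barcodes marked as doublets at 0.8% per 1000 barcodes were kept. Barcode sequences were partly shared between libraries, with 45762 distinct among 47282 in C57BL/6J cells, 9116 among 9153 in male cells, 23579 among 23849 in male nuclei, 21166 among 21221 in female cells and 73802 among 74454 in female nuclei. Counts of intercalated-like barcodes were summed per library, since cells are not replicates, and tested with the edgeR 4.0.16 quasi-likelihood test (R 4.3.3, TMM, filterByExpr, Benjamini-Hochberg over all genes tested, threshold 0.05), in the samples of each comparison as described. DESeq2 1.42.0, other scalings, filters, resolutions and left-out libraries were alternatives. On simulated counts a log2 fold change of 2 was planted in 200 genes, drawn only from those with higher expected counts. The steps recovered 100% of them in bulk warm against cold (13935 genes) and 99.5% in fresh intercalated-like cells, warm against cold (2282 genes). Smaller changes, such as those of the members in these comparisons, were not simulated, so their recovery is not known.

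Samples were grouped by their labels, and replicates are separate mice. No pair of replicates agreed within sampling noise (chi-square per gene 3.02 to 27.7 over 54 pairs). Preserved and fresh C57BL/6J libraries share a prefix in their column names, which was taken to mark the source suspension, though no label states it, and deviations of such pairs correlated between 0.081 and 0.34 for warm methanol-fixed, -0.012 and 0.14 for cold methanol-fixed, 0.091 and 0.12 for cold cryopreserved and -0.11 and 0.022 for warm cryopreserved cells. The main tests treated these C57BL/6J libraries as independent samples, and the source suspension entered only as a block in an alternative fit. The study describes female cryopreserved and fresh libraries as suspension aliquots, but no prefix or label says which belong together, so they were tested as independent samples. The genes named are the 8 members and, of the 2 lists of other pump and transport genes, examples of those called, and some called genes are not reported here. The members and lists were chosen with earlier results of these data known.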

Additional observations from a re-analysis of the deposited data

Results flagged for a closer look

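The difference between nuclei and cells of the same sex was itself not the same in the Balb/c females and males for 3 of the 8 genes, tested as an interaction in edgeR over 6808 genes, 1779 of which were called. Foxi1, the forkhead factor, was lower in nuclei by more in the females, with a log2 difference of female minus male effects of -0.79 (adjusted p = 0.028). Atp6v1g3 was lower in nuclei by less in the females, with a difference of 0.73 (adjusted p = 0.016). Atp6v0a4 was higher in nuclei by less in the females, with a difference of -1.05 (adjusted p = 0.00090). Sex, age and chemistry version cannot be told apart in this difference.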

How the results depend on the processing

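Of the comparisons' main values recomputed under alternatives, 260 kept direction and side of the threshold, 27 lost the threshold, 8 newly passed it and 3 moved. For single genes 1222 kept both, 62 lost the threshold, 28 newly passed it and 91 changed sign. The cause of these changes was not tested. Counts of called members changed as follows. A fold threshold left 0 in both bulk comparisons, and no filter on low counts gave 2 for intact kidney and 1 for warm against cold cells. Total counts as the scale gave 1 for cold methanol and 0 for cold cryopreserved cells. DESeq2 gave 0 for cold cryopreserved cells and 0 for SN_FANS_1x2000g, which also had 0 without doublets and 0 in type B-like barcodes. The replicate block of source suspensions gave 2 for warm methanol. Type A-like and type B-like barcodes alone, with 7 members tested in each, gave 0 and 0 for cryopreserved female cells, 4 and 7 for male nuclei (88.1% and 85.5% of all genes called), 7 and 6 for female nuclei (79.8% and 79.9%) and 4 and 3 for SN_sucrose (833 of 5743 and 729 of 6345 genes). At sub-cluster resolution 0.5 the type A-like levels of cryopreserved female cells were 929 CPM of Slc4a1 and 0 of Slc26a4, and 0 of Slc26a4 without doublets. With one library left out the counts were 0 to 7 for intact kidney, 0 to 1 for warm against cold cells (1 without warm fresh replicate 2), 1 to 3 for cold methanol (1 without cold fresh replicate 2 or methanol replicate 2 or 3), 0 to 1 for warm methanol, 0 to 1 for cold cryopreserved, 2 to 4 for female cryopreserved (2 without fresh replicate 3) and 0 to 0 for SN_FANS_1x2000g. Warm and cold libraries share only replicate numbers (correlations 0.012 to 0.073), and the replicate block called 24 genes and changed no member's call.

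Calls higher and lower over all genes went, from TMM to total counts, from 137 and 178 to 503 and 87 in cold methanol, from 19 and 46 to 149 and 31 in warm methanol, from 63 and 79 to 111 and 52 in cold cryopreserved, from 191 and 215 to 130 and 359 in female cryopreserved cells and from 712 and 293 to 614 and 538 in SN_FANS_1x2000g.

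Single genes changed sign (log2). Of these Slc26a4 (-0.62) and Atp6v1g3 (-0.55) in female cryopreserved cells and Foxi1 (-0.68) in male nuclei were called over all intercalated-like barcodes, and the others were not called. Warm against cold cells: Foxi1 0.089 (total counts), 0.0055 (no doublets) and 0.0076 (2 marker UMIs), Atp6v1b1 -0.064 (no filter). Cold methanol with total counts: Slc26a4 0.014, Atp6v1b1 0.036, Atp6v1c2 0.028, and Atp6v0d2 -0.0022 (RLE) and -0.0036 (2 marker UMIs). Warm methanol: Atp6v1c2 0.029 and Atp6v0d2 0.28 (total counts), Atp6v1g3 -0.0066 (DESeq2), -0.0052 (RLE), -0.015 (no filter), -0.0043 (no doublets) and -0.00021 (block). Cold cryopreserved: Atp6v1g3 0.020 (total counts). Warm cryopreserved: Foxi1 -0.0027 (DESeq2), -0.085 (total counts), -0.046 (resolution 1), -0.016 (no doublets), -0.0061 (2 marker UMIs), -0.0054 (measured genes) and -0.0010 (block), Atp6v1b1 0.016 (no filter) and 0.061 (resolution 1). Female cryopreserved: Slc26a4 0.66 and Atp6v1g3 0.019 (type B-like), Foxi1 0.025 and Atp6v0d2 0.094 (type A-like). Male nuclei: Foxi1 0.17 and 1.06, Atp6v1b1 0.47 and 0.87 (type A-like, type B-like), although their mean CPM was lower in nuclei in both types. Female nuclei: Atp6v1c2 0.081 (DESeq2), 0.082 (RLE), 0.15 (no filter), 0.42 (total counts), 0.15 (no doublets), 0.61 and 0.57 (type A-like, type B-like) and 0.15 (measured genes). SN_FANS_1x2000g: Slc4a1 -0.022 (no filter), -0.073 (total counts), -0.0017 (resolution 1), -0.095 (no doublets), -0.0022 (2 marker UMIs) and -0.14 (type A-like), Atp6v0a4 -0.018, -0.064, -0.015 and -0.076 (no filter, total counts, no doublets, type B-like), Atp6v0d2 -0.022 (total counts). SN_sucrose: Atp6v0a4 -0.0090, -0.12 and -0.0089 (no filter, total counts, type B-like).

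With one library left out, ranges crossing 0 were -0.06 to 0.36 for Slc26a4, -0.21 to 0.19 for Foxi1, -0.16 to 0.15 for Atp6v1b1 and -0.40 to 0.046 for Atp6v0a4 in warm against cold cells, -0.10 to 0.13 for Atp6v0d2 in cold methanol, -0.083 to 0.086 for Atp6v1g3 and -0.31 to 0.0013 for Atp6v0d2 in warm methanol, -0.28 to 0.051 for Atp6v1g3 in cold cryopreserved, -0.061 to 0.055 for Foxi1 and -0.13 to 0.057 for Atp6v1b1 in warm cryopreserved cells, -0.14 to 0.21 for Slc4a1, -0.056 to 0.063 for Atp6v0a4 and -0.023 to 0.11 for Atp6v0d2 in SN_FANS_1x2000g and -0.046 to 0.056 for Atp6v0a4 in SN_sucrose. For Atp6v1c2 in female nuclei it was 0.010 to 0.081.

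The number of intercalated-like barcodes, 13 in a warm methanol-fixed library, and their depth, with a median of 397.5 UMIs in a library of Balb/c male cells, limit the precision.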

Other observations

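Over 13 classes of barcodes, genes were ranked by Pearson's r of their mean log2(CPM + 1) with the mean profile of the 8 members, as a description over class means that share libraries. In fresh cells of the females, among 11571 genes, the highest that were no members were Guca2a (0.964), Avpr1a (0.955) and Hmx2 (0.952). In SN_FANS_3x500g nuclei, among 13075 genes, they were Slc4a9 (0.963), Mmd2 (0.955) and Gm37381 (0.952). Hmx2 and Slc4a9 are also markers by which the intercalated-like class was named, so their high ranks were partly set in advance. Atp6v0d2 ranked 3 in cells and 1 in nuclei, and Atp6v0a4 ranked 58 and 191, each being part of the mean it was ranked against.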
